A study of Callithrix jacchus with 20 samples.

Results

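Somatic cells from day 4 embryoid bodies (EBs) of the common marmoset were compared with the precursors of mesendoderm (pre-ME) they were made from, in the arm of the study where pre-ME was induced with Activin A (ActA). The comparison rests on 4 of the 20 RNA-seq libraries, 2 of pre-ME and 2 of somatic cells. They were taken by their labels, without use of any measured value. All of them came from 1 line of induced pluripotent stem cells (cjiPSCs), DPZ_cjiPSC2. The sample titles name its medium as cjPSCM for pre-ME and as cjEPSCM for somatic cells, and the study's text gives cjPSCM for both. Pre-ME was an adherent, unsorted culture induced with ActA and with CHIR, an inhibitor of the kinase GSK3. The EBs then grew with BMP4, LIF, SCF and EGF, were dissociated and were sorted by flow cytometry. Primordial germ cell-like cells (cjPGCLCs) were the cells positive for a pair of surface markers, and the somatic cells were negative for both. The sources name 3 different pairs: INTα6 (written INTa6) and EpCAM in the sample titles, CXCR4 and EpCAM in the cell type labels, and CXCR4 and INTα6 in the study's text. The replicates of a group are labelled biological, but no label says that they were separate inductions. The p-values rest on a spread between replicates that was estimated over all 20 libraries, part of which may be technical. The medium, the culture format, the dissociation and the sort all changed between the groups, and their parts in a difference cannot be told apart.

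Pre-ME is a short-lived state in which WNT and Activin/Nodal signals switch on genes of the primitive streak, the site where mesoderm and endoderm form, while genes of pluripotency are still transcribed. BMP4 acting on such cells is known to specify germ cells in a minority. The rest of the EB is known to take on mesodermal, extraembryonic or amnion-like characters, which are marked by transcription factors such as HAND1, GATA4 and TBX20. The comparison asks what the cells outside the germ cell gate had become since the pre-ME stage.

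The 4 libraries held 14055654 and 8193936 reads in genes for pre-ME and 6203030 and 7171565 for somatic cells. Levels are given as normalised counts, which are reads divided by the size factor of the library. A level compares libraries and not genes, since it is not divided by gene length. The standard deviation of the log2 difference between replicates over all tested genes was 0.397 in pre-ME and 0.448 in somatic cells.

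The sort markers were checked first. ITGA6, which encodes INTα6, was measured at 1259 and 1715 normalised counts in pre-ME and 218 and 149 in somatic cells (log2 fold change -3.03 ± 0.29, adjusted p = 5.4e-07). It stood at 2277 and 1206 in the cjPGCLCs of the same EBs, so both somatic libraries lay below every pre-ME and cjPGCLC library. CXCR4, a chemokine receptor of migrating germ cells, was measured at 82.6 and 88.5 normalised counts in pre-ME and 76.1 and 58.1 in somatic cells and at 1317 and 1275 in cjPGCLCs. Somatic cells were therefore low against cjPGCLCs (log2 fold change -4.29 ± 0.30, adjusted p = 7.4e-07), with no difference from pre-ME that passed the test (log2 fold change -0.36 ± 0.32, adjusted p = 0.38). EPCAM, an epithelial adhesion molecule, was measured at 391 and 315 normalised counts in pre-ME and 139.9 and 167 in somatic cells and at 1204 and 472 in cjPGCLCs (log2 fold change -2.47 ± 0.38, adjusted p = 9.1e-04 for somatic cells over cjPGCLCs), a difference that was not called without the first cjPGCLC replicate (log2 fold change -1.63). Transcripts of all 3 candidate markers were lower in the somatic libraries than in the cjPGCLC libraries. The cells were sorted on a pair of these candidates, so this direction was in part set by the sort. PDPN, a mucin-type surface protein of germ cells and epithelia, fell from 449 and 439.6 to 74.4 and 52.2 (log2 fold change -2.83 ± 0.30, adjusted p = 1.8e-06). KIT, the receptor for SCF, reached 1096 and 1309 against 339.6 and 275 in pre-ME (log2 fold change 1.95 ± 0.23, adjusted p = 4.0e-06). ITGB1, the common integrin beta chain, gave values of 10426 and 12058 and 9954 and 9937 (log2 fold change -0.18 ± 0.13, adjusted p = 0.27).

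The step from pre-ME to somatic cells moved many genes. Of 15797 genes tested, 835 rose (5.29%) and 476 fell (3.01%), 8.3% in all. A gene is said to rise or fall when its adjusted p is under 0.05 and its log2 fold change lies beyond 2 in either direction. Counts of list members that rose or fell are read against 5.29% and 3.01%, also where these shares are not repeated. At the adjusted p alone, 3760 genes were higher (23.8%) and 3824 lower (24.2%), and the median log2 fold change over all tested genes was 0.01. Of the called genes, 217 of the 835 and 163 of the 476 had 3 counts or fewer in both libraries of their lower group. The highest and lowest member of a list are those by the fitted log2 fold change, a rank that depends on the prior count where a group held few reads. Against a group without any read the fold is a minimum, computed as if each library held 3 counts, and against a group with 1 to 3 reads in all it is the ratio of pooled counts, with its interval. These are bulk libraries, in which fewer cells of a type and less RNA per cell cannot be told apart.

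**Figure D1:**
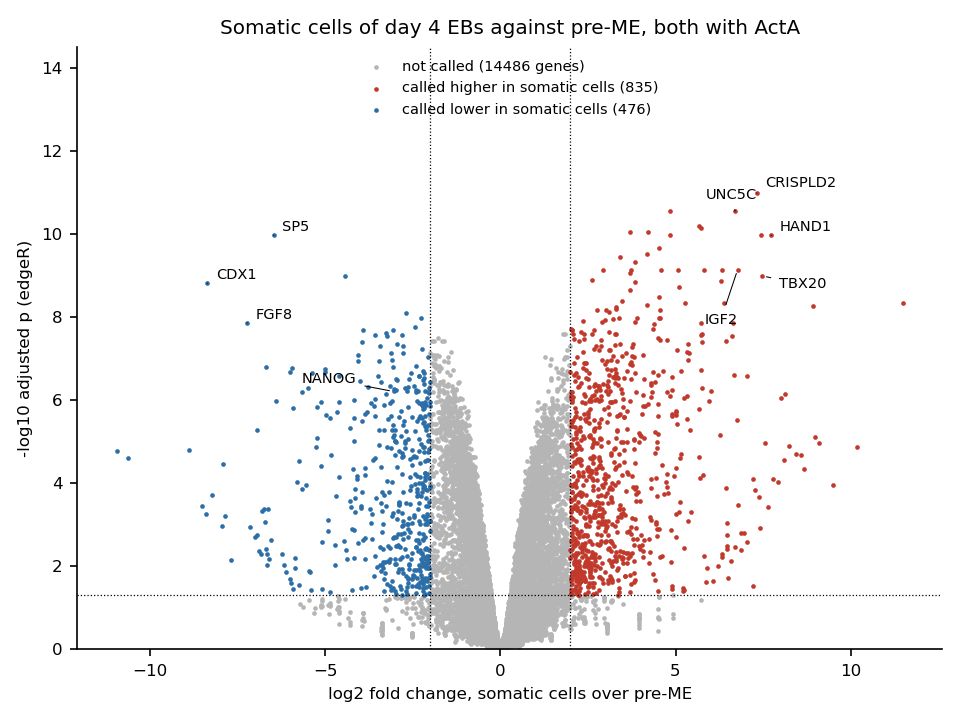
Log2 fold change of somatic cells over pre-ME against -log10 of the adjusted p for each of the 15797 tested genes, with dotted lines at log2 fold changes of -2 and 2 and at an adjusted p of 0.05. The 835 genes that rose are in red and the 476 that fell in blue. HAND1, TBX20 and CRISPLD2 stand among the strongest risers, and SP5, CDX1 and FGF8 among the strongest fallers.

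The 15 named genes with the largest rise included transcription factors of heart-forming and body wall mesoderm. HAND1, a factor of lateral and extraembryonic mesoderm, was measured at 16.7 and 18.3 normalised counts in pre-ME and 3934 and 3497 in somatic cells (log2 fold change 7.73 ± 0.34, adjusted p = 1.1e-10). TBX20, a T-box factor of heart mesoderm, was measured at 13.3 and 26.7 normalised counts in pre-ME and 3646 and 3090.4 in somatic cells (log2 fold change 7.48 ± 0.40, adjusted p = 1.0e-09). PRRX1, a homeobox factor of mesenchyme, was measured at 17.5 and 21.1 normalised counts in pre-ME and 3968 and 2698 in somatic cells (log2 fold change 7.44 ± 0.33, adjusted p = 1.1e-10). For each of these genes every somatic library exceeded every pre-ME library, which the rule for naming them required. The libraries of the groups did not overlap for 12678 of the 15797 tested genes. HAND2, the paralogue of HAND1, rose from 7.51 and 11.2 to 1732 and 662 (log2 fold change 7.03 ± 0.62, adjusted p = 2.6e-07), with replicates further apart than those of HAND1. GATA5, a zinc finger factor of cardiac and endodermal tissue, went from 0.83 and 0 to 200.1 and 129.7 (309-fold higher by pooled counts, 95% counting interval 54.9 to 12275, adjusted p = 9.0e-07). MYH6, the atrial myosin heavy chain, went from 1.67 and 0 to 138 and 204 (166-fold higher by pooled counts, 95% counting interval 45.5 to 1381, adjusted p = 7.9e-05). The growth factor gene IGF2 rose from 19.2 and 14.04 to 2273 and 1528 (log2 fold change 6.77 ± 0.35, adjusted p = 7.2e-10). CRISPLD2, a secreted protein of mesenchyme, had values of 21.7 and 16.9 and 3327 and 3046 (log2 fold change 7.32 ± 0.24, adjusted p = 1.0e-11).

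Others of the 15 are better known outside mesoderm. VTCN1, an immune checkpoint protein that also marks amnion, had no read in pre-ME and 184 and 77.5 normalised counts in somatic cells (at least 39-fold higher, adjusted p = 1.4e-05). INSRR, a receptor related to the insulin receptor, had no read in pre-ME and 313 and 325 in somatic cells (at least 95.1-fold higher, adjusted p = 4.6e-09). EN1, a homeobox factor of ectoderm and the midbrain-hindbrain border, rose to 398 and 535 (301-fold higher by pooled counts, 95% counting interval 102 to 1464, adjusted p = 7.2e-07). FEZF2, a forebrain zinc finger factor, rose to 120.4 and 119 (229-fold higher by pooled counts, 95% counting interval 40.4 to 9099, adjusted p = 1.1e-05). CHRNA3, a nicotinic receptor subunit of autonomic neurons, rose to 154 and 99.9 (119-fold higher by pooled counts, 95% counting interval 32.4 to 992, adjusted p = 3.1e-06). UNC5C, a netrin receptor, rose from 51.7 and 75.8 to 6349 and 6646 (log2 fold change 6.70 ± 0.25, adjusted p = 2.8e-11). The pre-ME libraries held at most 3 normalised counts of EN1, FEZF2 and CHRNA3.

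The 15 with the largest fall included genes of the posterior primitive streak and its signals. CDX1, a caudal homeobox factor, was measured at 678 and 449 normalised counts in pre-ME and 1.77 and 1.49 in somatic cells (366-fold lower by pooled counts, 95% counting interval 101 to 3026, adjusted p = 1.5e-09). FGF8, a streak growth factor, was measured at 730.1 and 509.8 normalised counts in pre-ME and 1.77 and 5.96 in somatic cells (log2 fold change -7.24 ± 0.49, adjusted p = 1.4e-08). SP5, a direct WNT target, was measured at 2743 and 1871 normalised counts in pre-ME and 33.6 and 19.4 in somatic cells (log2 fold change -6.47 ± 0.29, adjusted p = 1.1e-10). NODAL, the ligand that ActA stands in for, fell from 224 and 53.4 to 1.77 and 2.98 (66-fold lower by pooled counts, 95% counting interval 22.4 to 322, adjusted p = 9.5e-05). CDX2 fell from 197 and 139 to 3.54 and 2.98 (log2 fold change -5.67 ± 0.55, adjusted p = 6.4e-07). The pre-ME replicates of NODAL differed widely, and both exceeded both somatic libraries, as the rule for naming required. FOXB1, a forkhead factor of the posterior neural plate, had 211 and 139 normalised counts in pre-ME and no read in somatic cells (at least 35.8-fold lower, adjusted p = 2.5e-05). WNT4, a WNT ligand, fell from 102 and 152 to 7.08 and 0 (log2 fold change -5.23 ± 0.65, adjusted p = 8.5e-06). APLN, which encodes the ligand of the apelin receptor, fell from 1373 and 1419.8 to 21.2 and 22.4 (log2 fold change -5.997 ± 0.52, adjusted p = 2.1e-07). The receptor gene APLNR moved the other way, from 27.5 and 29.5 to 508 and 468 (log2 fold change 4.09 ± 0.37, adjusted p = 3.1e-07). ANKRD1, a target of mechanical YAP signalling, fell from 7832 and 8487 to 179 and 186 (log2 fold change -5.49 ± 0.52, adjusted p = 5.0e-07). The remaining 6 of the 15 were COL10A1, COCH, PRR15, TRIML2, SLC34A2 and PYY. Their pre-ME levels ran from 130.2 and 163 for PYY, a gut hormone, to 555 and 541 for PRR15. Their somatic levels were at most 8.94 in every library. Some of the named genes overlap another annotated gene in the RefSeq gene table, among them COL10A1 with NT5DC1, MYH6 with CMTM5, FGF2 with NUDT6, FAS with ACTA2, TNNI1 with PHLDA3 and HAND2 with a long non-coding RNA, and whether reads were assigned by strand is not given in the sources used here, so reads of such pairs may be split.

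Genes of pluripotency fell only in part. In the list of core and primed pluripotency, 1 of the 20 tested members rose and 5 fell, against 5.29% and 3.01% of all tested genes. The median log2 fold change of the list was -1.11. NANOG was measured at 1406 and 1581 normalised counts in pre-ME and 158 and 203 in somatic cells (log2 fold change -3.05 ± 0.30, adjusted p = 6.3e-07). POU5F1, which encodes OCT4, was measured at 2915 and 3035 normalised counts in pre-ME and 1262 and 1184 in somatic cells (log2 fold change -1.29 ± 0.17, adjusted p = 1.5e-05), short of the fold threshold. SOX2 was measured at 3378 and 3121 normalised counts in pre-ME and 2799 and 3245 in somatic cells (log2 fold change -0.11 ± 0.25, adjusted p = 0.74), and its libraries overlapped. NANOG had thus fallen, POU5F1 was lower and SOX2 was near its pre-ME level in the same libraries. UTF1, ZFP42 and TERT, the catalytic subunit of telomerase, also fell, with log2 fold changes of -4.09, -2.94 and -3.06. FGF2, the growth factor that sustains primed cells, was the 1 member that rose, from 11.7 and 7.02 to 74.4 and 71.6 (log2 fold change 2.88 ± 0.50, adjusted p = 1.9e-04). LIN28A, an RNA-binding protein of early embryos, was measured at 9025 and 8511 normalised counts in pre-ME and 6241 and 5392 in somatic cells (log2 fold change -0.60 ± 0.22, adjusted p = 0.031).

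Among genes of naive and formative pluripotency, 1 of the 11 tested members rose and 3 fell, against 5.29% and 3.01% of all tested genes. GDF3, a TGF-beta family ligand, was lowest at 1.77 and 2.98 normalised counts against 60.9 and 71.6 in pre-ME (26.7-fold lower by pooled counts, 95% counting interval 8.94 to 131, adjusted p = 2.1e-04). ESRRB, an orphan nuclear receptor, was highest at 14.2 and 17.9 against 2.50 and 0 (10.3-fold higher by pooled counts, 95% counting interval 3.06 to 54.2, adjusted p = 0.0076), and was not called without the second somatic replicate (adjusted p = 0.052). Of the genes known from primate germ cells, 0 of the 22 tested members rose and 8 fell, with a median of -1.31. The lowest was NR5A2, an orphan nuclear receptor, from 45.1 and 49.1 to 3.54 and 1.49 (19.2-fold lower by pooled counts, 95% counting interval 6.36 to 94.8, adjusted p = 4.5e-05), and the highest was KIT, given above. SOX17, the factor that starts the germ cell programme in primates, was measured at 219 and 187 normalised counts in pre-ME and 143 and 219 in somatic cells (log2 fold change -0.17 ± 0.49, adjusted p = 0.8). TFAP2C and PRDM1, its partners, had log2 fold changes of -1.40 and -1.50. NANOS3, an RNA-binding protein of germ cells, had 6.68 and 5.62 normalised counts in pre-ME and 3.54 and 1.49 in somatic cells. None of these 4 passed the fold threshold. The later germ cell genes DDX4 and DAZL had at most 3 reads in each of the 4 libraries, and TBXT, the classical streak factor, at most 2.

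Of all 32 lists, that of the primitive streak had the largest share of members that fell. In it, 3 of the 22 tested members rose and 9 fell, against 5.29% and 3.01% of all tested genes, with a median of -1.76. Beside the members already named, EOMES, a T-box factor of mesendoderm, fell from 39.2 and 22.5 to 3.54 and 1.49 (13.6-fold lower by pooled counts, 95% counting interval 4.44 to 67.6, adjusted p = 0.0022). LHX1 fell from 139 and 29.5 to 5.31 and 1.49 (log2 fold change -4.73 ± 1.38, adjusted p = 0.0095), with pre-ME replicates far apart, and was not called without the first pre-ME replicate (adjusted p = 0.17) or the second somatic replicate (adjusted p = 0.087). GBX2 and NKX1-2, factors of the posterior epiblast, fell with log2 fold changes of -2.70 and -3.24. The 3 members that rose were APLNR, APELA, which encodes a second ligand of that receptor (log2 fold change 2.51 ± 0.37, adjusted p = 4.0e-05), and WNT3 (log2 fold change 2.16 ± 0.41, adjusted p = 4.0e-04). CDX4 stood at 47.6 and 49.1 in pre-ME and 56.7 and 76.03 in somatic cells (log2 fold change 0.46 ± 0.43, adjusted p = 0.39), unlike CDX1 and CDX2.

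Part of the feedback genes of the streak's signals fell as well. Of the WNT feedback targets, 2 of the 24 tested members rose and 6 fell, against 5.29% and 3.01% of all tested genes. Their median was -1.02. AXIN2, the standard WNT feedback inhibitor, was measured at 2316 and 2149 normalised counts in pre-ME and 887 and 929 in somatic cells (log2 fold change -1.30 ± 0.14, adjusted p = 1.4e-06), short of the fold threshold. LGR5, the R-spondin receptor, fell from 134 and 125 to 33.6 and 20.9 (log2 fold change -2.27 ± 0.40, adjusted p = 2.0e-04). TNFRSF19 rose from 1040.5 and 1056 to 6142 and 6024 (log2 fold change 2.53 ± 0.24, adjusted p = 5.0e-07), and LEF1, a nuclear effector of WNT, was measured at 2202 and 1718 normalised counts in pre-ME and 4804 and 5505 in somatic cells (log2 fold change 1.39 ± 0.26, adjusted p = 3.6e-04). The highest member was MSX1, which is also a BMP target, and the lowest CDX1. Of the FGF and ERK feedback genes, 1 of the 24 tested members rose and 5 fell, FGF2 being the highest and FGF8 the lowest. IL17RD, an inhibitor of FGF signalling, fell from 1601 and 1240.1 to 198 and 188 (log2 fold change -2.89 ± 0.32, adjusted p = 2.6e-06), and the ETS factor ETV4 fell from 676 and 492 to 149 and 107 (log2 fold change -2.21 ± 0.25, adjusted p = 3.7e-06). DUSP6, a phosphatase of ERK, was measured at 2969.6 and 2675 normalised counts in pre-ME and 2649 and 2095 in somatic cells (log2 fold change -0.26 ± 0.16, adjusted p = 0.18). Among nodal and activin targets, 1 of the 10 tested members rose and 2 fell. PMEPA1, an inhibitor of SMAD signalling, fell from 512 and 531 to 77.9 and 62.6 (log2 fold change -2.90 ± 0.39, adjusted p = 1.7e-05), and NODAL was the lowest. LGR5 was not called without the second somatic replicate (log2 fold change -1.95), nor ETV4 without the first pre-ME replicate (log2 fold change -1.95) or the second somatic replicate (log2 fold change -1.99). The highest was BAMBI, a decoy receptor that BMP signals also induce.

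Genes of lateral plate and splanchnic mesoderm were among those that rose. In that list, 17 of the 32 tested members rose and 2 fell, against 5.29% and 3.01% over all tested genes. Like the other lists, it was chosen with earlier results of these data known, so these shares are a description. Its median log2 fold change was 2.34, and 2.11 with genes at 0 in a group set at their bound and genes at 3 reads or fewer in every library left out. The summed level of the list was 8987 and 8066 in pre-ME and 43044 and 36492 in somatic cells. GATA4, a zinc finger factor of heart and extraembryonic tissue, was measured at 23.4 and 11.2 normalised counts in pre-ME and 1294 and 690.2 in somatic cells (log2 fold change 5.72 ± 0.49, adjusted p = 1.9e-07). TWIST1, a mesenchymal helix-loop-helix factor, was measured at 97.6 and 46.4 normalised counts in pre-ME and 3286 and 2551 in somatic cells (log2 fold change 5.27 ± 0.32, adjusted p = 4.5e-09). TBX2, a T-box repressor of the heart and limb, was measured at 93.5 and 74.4 normalised counts in pre-ME and 3306 and 2595 in somatic cells (log2 fold change 5.11 ± 0.29, adjusted p = 1.9e-09). ISL1, a homeobox factor of the second heart field, was measured at 126 and 126 normalised counts in pre-ME and 1643 and 1747 in somatic cells (log2 fold change 3.74 ± 0.19, adjusted p = 7.2e-10). All 4 had reads in both pre-ME libraries, and their somatic libraries lay far above. SNAI2, MSX1 and MSX2 rose with log2 fold changes of 4.52, 3.11 and 4.30. GATA5 was the highest member. The lowest was NKX2-3, a homeobox factor of the gut wall, which fell from 1133 and 1288 to 133 and 119 (log2 fold change -3.27 ± 0.32, adjusted p = 7.2e-07). OSR1, a factor of intermediate mesoderm, fell as well (log2 fold change -2.86 ± 0.79, adjusted p = 0.0067), and was not called without the first pre-ME replicate (adjusted p = 0.2) or the second somatic replicate (adjusted p = 0.073). FOXF1, NKX2-5 and BARX1 had too few reads to be tested.

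**Figure D2:**
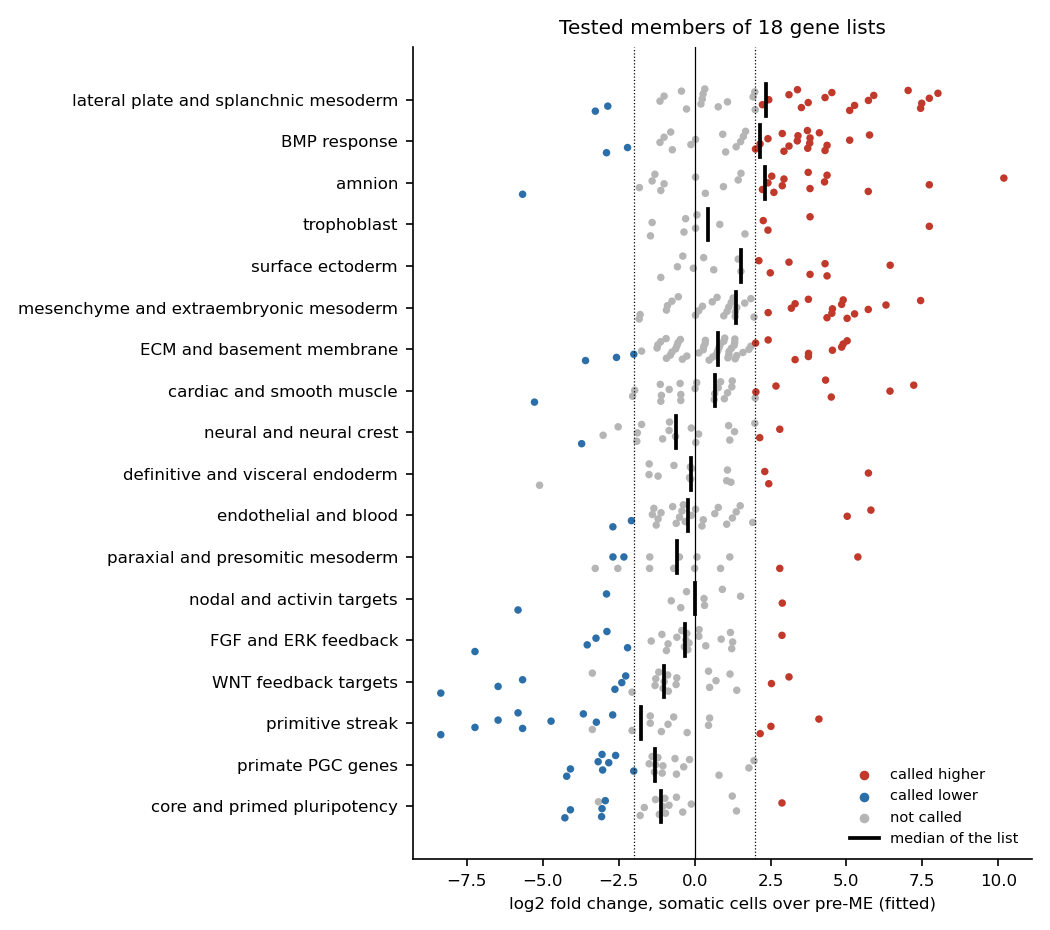
Fitted log2 fold change of somatic cells over pre-ME for the tested members of 18 gene lists, a point for each gene and a black bar for the median of each list. Red points rose and blue points fell. The lists of lateral plate mesoderm, amnion and BMP response have medians above 2, and those of the primitive streak and WNT feedback have medians below -1.

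Of the genes of mesenchyme and extraembryonic mesoderm, 14 of the 36 tested members rose and 0 fell, against 5.29% and 3.01% of all tested genes. At the adjusted p alone 27 were higher and 3 lower, against 23.8% and 24.2%. The median log2 fold change of the list was 1.36. PDGFRA, the receptor for platelet-derived growth factor on early mesenchyme, was measured at 46.7 and 51.96 normalised counts in pre-ME and 4303 and 3481 in somatic cells (log2 fold change 6.30 ± 0.35, adjusted p = 1.4e-09). POSTN, a matrix protein, was measured at 50.9 and 60.4 normalised counts in pre-ME and 3472 and 2359.9 in somatic cells (log2 fold change 5.72 ± 0.38, adjusted p = 1.4e-08). DCN, the proteoglycan decorin, was measured at 335 and 369 normalised counts in pre-ME and 8979 and 7431 in somatic cells (log2 fold change 4.54 ± 0.30, adjusted p = 1.1e-08). In all 3 genes both somatic replicates lay far above both pre-ME replicates. COL3A1, a fibrillar collagen, reached 5105 and 1559 from 81.8 and 126 (log2 fold change 5.02 ± 0.55, adjusted p = 2.3e-06), with the somatic replicates further apart than those of PDGFRA. PRRX1 was the highest member. The lowest was VCAM1, an adhesion molecule (log2 fold change -1.83 ± 0.84, adjusted p = 0.082), with 0 and 17.9 normalised counts in somatic cells. VIM, the intermediate filament of mesenchyme, was already at 45022 and 51248 in pre-ME and stood at 37794 and 28816 in somatic cells (log2 fold change -0.54 ± 0.22, adjusted p = 0.055). FN1, fibronectin, was measured at 39203 and 29949 normalised counts in pre-ME and 110395 and 71370.4 in somatic cells (log2 fold change 1.39 ± 0.23, adjusted p = 1.4e-04).

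In the wider list of matrix and basement membrane genes, 9 of the 51 tested members rose and 3 fell, against 5.29% and 3.01% of all tested genes. At the adjusted p alone 28 were higher and 11 lower, against 23.8% and 24.2%. Of the members that rose, COL1A1, COL3A1, COL6A2, COL6A3, NID2, DCN and LUM are also in the list of mesenchyme. The highest was COL3A1. The lowest was LOX, the enzyme that cross-links collagen, which fell from 1419 and 1636 to 122 and 131 (log2 fold change -3.59 ± 0.38, adjusted p = 1.4e-06). The network collagens of basement membrane, COL4A1 and COL4A2, had log2 fold changes of -1.12 and -0.58, while the type VI chains COL6A2 and COL6A3 rose by 4.89 and 4.84. Cardiac and smooth muscle genes were mixed. In that list 6 of the 27 tested members rose and 1 fell, with a median of 0.66. PLN, the calcium pump regulator phospholamban, rose from 0 and 1.40 to 63.7 and 47.7 (105-fold higher by pooled counts, 95% counting interval 18.2 to 4213, adjusted p = 1.3e-04), and TNNI1, slow troponin I, rose from 20.9 and 12.6 to 397 and 309 (log2 fold change 4.31 ± 0.40, adjusted p = 4.0e-07). MYH6 was the highest, and NPPB, a natriuretic peptide, the lowest (42.5-fold lower by pooled counts, 95% counting interval 14.3 to 208, adjusted p = 1.4e-05). The smooth muscle genes ACTA2 and TAGLN gave log2 fold changes of 0.85 and -1.11. TNNT2, cardiac troponin T, stood at 8.85 and 1.49 against 24.2 and 15.4 in pre-ME (log2 fold change -2.04 ± 1.04, adjusted p = 0.12), and NKX2-5 had at most 3 reads in each of the 4 libraries.

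**Figure D3:**
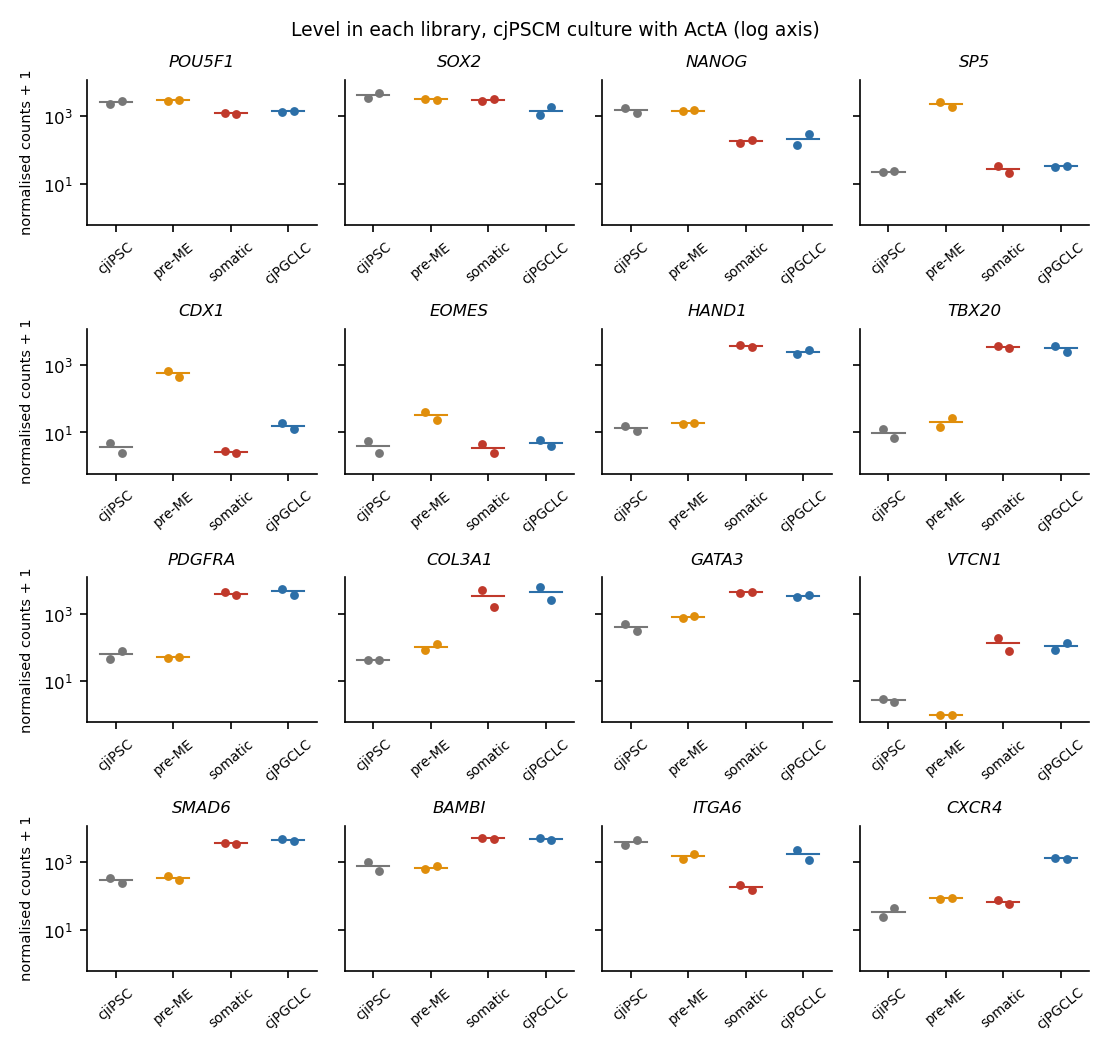
Normalised counts plus 1 on a log axis for 16 genes in cjiPSCs, pre-ME, somatic cells and cjPGCLCs of the arm with ActA, with 2 points for the libraries of each group and a line at their mean. HAND1, TBX20, PDGFRA and SMAD6 rise in both day 4 groups, SP5 and CDX1 peak in pre-ME, and ITGA6 and CXCR4 separate somatic cells from cjPGCLCs.

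Genes of the amnion rose in the same libraries. In that list, 13 of the 24 tested members rose and 1 fell, against 5.29% and 3.01% of all tested genes. The median of the list was 2.32, or 2.41 with genes at 0 and near 0 treated as above. Of its members, HAND1, POSTN, ISL1, MEIS1 and BMP4 are also in the mesodermal lists, and BAMBI, GATA3, TFAP2A, DLX5 and HEY1 in that of BMP response. The summed level was 9752 and 9446 in pre-ME and 34255 and 28347 in somatic cells. GATA3, a factor of amnion and trophoblast, was measured at 763 and 824 normalised counts in pre-ME and 4169.8 and 4322 in somatic cells (log2 fold change 2.41 ± 0.27, adjusted p = 2.9e-06). TFAP2A, a factor of non-neural ectoderm, was measured at 24.2 and 15.4 normalised counts in pre-ME and 335 and 247 in somatic cells (log2 fold change 3.80 ± 0.48, adjusted p = 9.4e-06). GABRP, a GABA receptor subunit used as an amnion marker, was measured at 0.83 and 0 normalised counts in pre-ME and 14.2 and 10.4 in somatic cells (23.2-fold higher by pooled counts, 95% counting interval 3.57 to 976, adjusted p = 0.0046). IGFBP3, an IGF-binding protein, was at 4055 and 646 in the somatic replicates (log2 fold change 2.61 ± 0.64, adjusted p = 0.003), and was not called without the first somatic replicate (adjusted p = 0.3). VTCN1 was among the members that rose, and CDX2 was the lowest. KRT17, KRT23 and KRT24, keratins of the list, had too few reads to be tested. How much of these levels came from amnion-like cells and how much from mesoderm was not tested.

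Of the surface ectoderm genes, 7 of the 15 tested members rose and 0 fell, against 5.29% and 3.01% of all tested genes. Their median was 1.53, or 1.82 treated as above. The median was 0.61 with no filter on low counts and 3.12 with the libraries of the comparison only. Of the members that rose, TFAP2A, DLX5, MSX1 and MSX2 are also in the list of BMP response. DLX6 was the highest, from 1.67 and 2.81 to 191 and 195 (log2 fold change 6.44 ± 0.48, adjusted p = 3.8e-08), and its neighbour DLX5 rose from 19.2 and 9.83 to 335 and 304 (log2 fold change 4.36 ± 0.38, adjusted p = 2.1e-07). TFAP2B was the lowest (log2 fold change -1.11 ± 0.98, adjusted p = 0.36). TP63, KRT5 and KRT15, which define the surface ectoderm and its stratified derivatives, had 2 reads or fewer in each of the 4 libraries. Of the trophoblast genes, 4 of the 12 tested members rose and 0 fell: HAND1, TFAP2A, GATA3 and PGF, a placental growth factor (log2 fold change 2.26 ± 0.27, adjusted p = 5.5e-06). TEAD4 was the lowest (log2 fold change -1.46 ± 0.21, adjusted p = 3.1e-05). The trophoblast genes GCM1, ELF5 and VGLL1 had 1 read or none per library. In the list of epithelial junction genes, 3 of the 29 tested members rose and 2 fell, with a median of -0.04. CDH3, P-cadherin, was the highest, from 269.5 and 163 to 2169 and 2057 (log2 fold change 3.26 ± 0.43, adjusted p = 1.5e-05), and the keratins KRT8 and KRT19 rose with log2 fold changes of 2.12 and 2.38. KRT8 was not called without the second pre-ME replicate (log2 fold change 1.60) or the first somatic replicate (log2 fold change 1.74), nor KRT19 without the second pre-ME replicate (adjusted p = 0.082). MARVELD3, a tight junction protein, had no read in somatic cells and 7 reads in all in pre-ME. CDH1, E-cadherin, had at most 7 reads in each of the 4 libraries.

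Many BMP response genes rose in the somatic cells. In that list, 17 of the 31 tested members rose and 2 fell, against 5.29% and 3.01% of all tested genes. The median was 2.15. Of the members that rose, MSX1, MSX2 and TBX2 are also in the list of lateral plate mesoderm. BAMBI, GATA3, TFAP2A, DLX5 and HEY1 are also in that of the amnion. The EBs had been given BMP4, and its part in these levels was not tested. SMAD6, an inhibitory SMAD that BMP induces, was measured at 381 and 305 normalised counts in pre-ME and 3828 and 3506 in somatic cells (log2 fold change 3.40 ± 0.26, adjusted p = 4.5e-08). BAMBI was measured at 617 and 772 normalised counts in pre-ME and 5278 and 5021 in somatic cells (log2 fold change 2.89 ± 0.29, adjusted p = 1.0e-06). SMAD9, a receptor-regulated SMAD of the pathway, was measured at 115 and 118 normalised counts in pre-ME and 1503 and 1568 in somatic cells (log2 fold change 3.71 ± 0.20, adjusted p = 9.0e-10). The secreted antagonists rose too: CHRD, GREM1 and NOG had log2 fold changes of 3.72, 4.11 and 2.15. Of the ID genes, the general readout of BMP signals, ID2 rose (log2 fold change 2.004 ± 0.19, adjusted p = 6.4e-07), and ID1, ID3 and ID4 were higher by 1.37, 0.93 and 1.60 without passing the fold threshold. ID2 lies at the threshold and was not called without the second pre-ME replicate (log2 fold change 1.94) or the second somatic replicate (log2 fold change 1.90), and NOG was not called without the second pre-ME replicate (log2 fold change 1.76). BMP5 was the highest member, from 5.84 and 7.02 to 411 and 289 (log2 fold change 5.76 ± 0.55, adjusted p = 5.0e-07), and PMEPA1 the lowest. BMP4 itself was measured at 712 and 681 normalised counts in pre-ME and 404 and 295 in somatic cells (log2 fold change -1.01 ± 0.37, adjusted p = 0.032).

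NOTCH pathway genes moved both ways: 3 of the 19 tested members rose and 3 fell, against 5.29% and 3.01% of all tested genes. HEY1 and HEY2, target genes of NOTCH and BMP, rose from 370.5 and 351 to 2697 and 2879 (log2 fold change 2.94 ± 0.15, adjusted p = 7.2e-10) and from 39.2 and 35.1 to 419.6 and 269.8 (log2 fold change 3.19 ± 0.33, adjusted p = 1.1e-06). LFNG, a glycosyltransferase that tunes NOTCH, fell from 1148 and 893 to 211 and 198 (log2 fold change -2.33 ± 0.48, adjusted p = 8.4e-04). MFNG, its paralogue, went from 11.7 and 11.2 normalised counts to no read (at least 2.34-fold lower, adjusted p = 8.9e-04). Of the retinoic acid genes, 0 of the 15 tested members rose and 3 fell. CYP26A1 and CYP26B1, enzymes that degrade retinoic acid, fell from 118 and 29.5 to 3.54 and 1.49 (34.9-fold lower by pooled counts, 95% counting interval 11.7 to 171, adjusted p = 0.0014) and from 279.5 and 166 to 19.5 and 17.9 (log2 fold change -3.59 ± 0.40, adjusted p = 2.4e-06). STRA6, a retinol transporter, was the highest (log2 fold change 1.51 ± 0.36, adjusted p = 0.0023).

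The called members of lists of other lineages are read against 5.29% higher and 3.01% lower over all tested genes. In the list of paraxial and presomitic mesoderm, 2 of the 14 tested members rose and 2 fell, with a median of -0.60. PCDH8, a protocadherin of the forming somite, was the highest, from 51.7 and 44.9 to 2008 and 2077 (log2 fold change 5.38 ± 0.42, adjusted p = 7.5e-08), and DLL1, a NOTCH ligand, rose from 69.2 and 64.6 to 591 and 356 (log2 fold change 2.80 ± 0.29, adjusted p = 1.1e-06). The defining factors TBX6 and MSGN1 stood at 5.31 and 4.47 normalised counts and at no read in somatic cells. FOXC2 was the lowest (11-fold lower by pooled counts, 95% counting interval 1.72 to 459, adjusted p = 0.11). Among endoderm genes, 3 of the 15 tested members rose and 0 fell. Those that rose included GATA4 and GATA6 (log2 fold change 2.44 ± 0.28, adjusted p = 3.1e-06), which are shared with mesoderm. FOXA2, the defining endoderm factor, had no read in either somatic library and 7 reads in all in pre-ME. Of the neural genes, 2 of the 19 tested members rose and 1 fell. DLL1 was the highest and SOX3, a neural relative of SOX2, the lowest (log2 fold change -3.72 ± 0.71, adjusted p = 4.1e-04). PAX6 and SOX1, which define neural ectoderm, were at or below 1 read in each somatic library.

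Of the 26 endothelial and blood genes tested, 6 were higher and 8 lower at the adjusted p alone, against 23.8% and 24.2% of all tested genes. In that list, 2 of the 26 tested members rose and 2 fell, against 5.29% and 3.01% of all tested genes, with a median of -0.21. CDH5, the cadherin of endothelium, stood at 11857 and 3403 in cjiPSCs, 1116 and 955 in pre-ME and 1546 and 1753 in somatic cells (log2 fold change 0.66 ± 0.39, adjusted p = 0.18). TAL1, a blood and endothelial factor, stood at 2579 and 2369, 1237 and 1463 and 887 and 1205 in the same order (log2 fold change -0.37 ± 0.26, adjusted p = 0.25). Both had reads in cjiPSCs, before any induction. LYVE1, a hyaluronan receptor, was the highest (68-fold higher by pooled counts, 95% counting interval 11.6 to 2748, adjusted p = 0.0057), and HBE1, embryonic globin, rose from 0.83 and 2.81 to 21.2 and 87.96 (36.6-fold higher by pooled counts, 95% counting interval 12 to 182, adjusted p = 0.002). RUNX1, a blood stem cell factor, fell from 669 and 567 to 92.1 and 99.9 (log2 fold change -2.69 ± 0.32, adjusted p = 5.7e-06) and was the lowest. LYVE1 was not called without the first pre-ME replicate (adjusted p = 0.072), nor HBE1 without the second somatic replicate (adjusted p = 0.055). The HOX clusters, which set position along the body axis, had 20 tested genes, of which 4 rose and 1 fell. HOXD3 rose from 5.84 and 5.62 to 67.3 and 56.6 (log2 fold change 3.39 ± 0.46, adjusted p = 2.0e-05), and HOXB6 had 10.6 and 2.98 normalised counts in somatic cells and no read in pre-ME. HOXB6 was not called without the first pre-ME replicate (adjusted p = 0.083) or the first somatic replicate (adjusted p = 0.11). HOXA13 was measured at 161 and 176 normalised counts in pre-ME and 545 and 261 in somatic cells (log2 fold change 1.25 ± 0.31, adjusted p = 0.0036).

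Most cell cycle genes were lower at the adjusted p alone. Of the 36 cell cycle genes, none rose and 4 fell, and at the adjusted p alone 2 were higher and 30 lower, against 23.8% and 24.2% of all genes. Their median log2 fold change was -0.81. MKI67, a marker of cycling cells, was measured at 7121 and 6728 normalised counts in pre-ME and 3934 and 3716 in somatic cells (log2 fold change -0.86 ± 0.29, adjusted p = 0.021). MYC fell from 2029 and 1903 to 466 and 407 (log2 fold change -2.18 ± 0.29, adjusted p = 1.8e-05). CDKN1C, a cell cycle inhibitor, was the highest (log2 fold change 1.35 ± 0.18, adjusted p = 2.0e-05). The lowest was CDKN2A, the p16 and ARF locus, which fell from 1465 and 1337 to 119 and 140.1 (log2 fold change -3.44 ± 0.26, adjusted p = 5.0e-08), beside CDKN1A, the p53 target p21, from 782 and 899 to 119 and 76.03 (log2 fold change -3.13 ± 0.35, adjusted p = 2.5e-06). Of the p53 targets, 0 of the 19 tested members rose and 5 fell, with TP53INP1 the highest (log2 fold change 1.23 ± 0.27, adjusted p = 0.0015) and FAS, a death receptor, the lowest (12.9-fold lower by pooled counts, 95% counting interval 2.07 to 536, adjusted p = 0.017). PHLDA3 and TNFRSF10B fell with log2 fold changes of -3.39 and -3.23. FAS was not called without the second pre-ME replicate (adjusted p = 0.12) or the first somatic replicate (adjusted p = 0.11).

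Immediate early and heat shock genes answer to handling as well as to signals. Of the 32 tested members 0 rose and 3 fell, against 5.29% and 3.01% of all tested genes. At the adjusted p alone 4 were higher and 16 lower, against 23.8% and 24.2%. FOSL1, an AP-1 subunit, was the lowest (log2 fold change -3.86 ± 0.57, adjusted p = 4.4e-05) and EGR2 the highest (log2 fold change 1.09 ± 0.37, adjusted p = 0.022). FOS and EGR1 gave log2 fold changes of -0.45 and 0.14, and neither passed the test. The part of dissociation and sorting in these levels was not tested. All but 1 of the 50 ribosomal protein genes had a log2 fold change below 0, 40 of them at the adjusted p alone, with a median of -0.71, a lowest value of -1.26 for RPS19 and a highest of 0.37 for RPS29. None passed the fold threshold.

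Among the imprinted genes, 5 of the 20 tested members rose and 1 fell, against 5.29% and 3.01% of all tested genes. PEG3, a paternally expressed zinc finger gene, was measured at 4867 and 4605 normalised counts in pre-ME and 39938 and 38454 in somatic cells (log2 fold change 3.04 ± 0.26, adjusted p = 1.8e-07). DLK1, a paternally expressed ligand, was measured at 16.7 and 19.7 normalised counts in pre-ME and 244 and 107 in somatic cells (log2 fold change 3.27 ± 0.53, adjusted p = 1.1e-04). ZIM2 went from 0 and 0 to 19.5 and 40.2 (at least 8.89-fold higher, adjusted p = 2.8e-05), the neighbour of PEG3 in the RefSeq gene table. PHLDA2, a maternally expressed growth regulator, was the lowest (log2 fold change -2.21 ± 0.78, adjusted p = 0.027), and was not called without the first pre-ME replicate (adjusted p = 0.1), the first somatic replicate (adjusted p = 0.053) or the second somatic replicate (adjusted p = 0.19). Of the 31 glycolysis and hypoxia genes, ADM, the vessel peptide adrenomedullin, rose from 113 and 94.1 to 999 and 754 (log2 fold change 3.05 ± 0.35, adjusted p = 3.4e-06), and PFKP, a phosphofructokinase, fell from 5219 and 5712 to 1052 and 1087 (log2 fold change -2.36 ± 0.23, adjusted p = 6.2e-07). Their median was -0.73. No gene of cholesterol synthesis passed both thresholds. The lowest of the 24 tested was TM7SF2 at -1.80. No gene of DNA methylation passed them either, with values from -1.97 for GADD45B to 1.59 for TET2, a demethylating enzyme, over 13 genes. Of all tested genes 8.3% passed both thresholds.

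The arm without ActA repeated the step with other libraries. Its pre-ME was induced with CHIR alone, its EBs were made and sorted in the same way, and it shares no library with the arm above. There 788 genes rose (4.99%) and 467 fell (2.96%), 7.94% in all. Both arms called 499 genes higher, which is 59.8% of the 835 and 63.3% of the 788. They called 228 lower, which is 47.9% of the 476 and 48.8% of the 467. In opposite directions they called 4. Of the 835 genes that rose with ActA, 804 had a positive log2 fold change without it, and of the 476 that fell, 437 had a negative one. Across the 15797 genes the log2 fold changes of the arms had a Pearson correlation of 0.74 and a Spearman correlation of 0.723, as a description over genes, which are not independent replicates. HAND1 went from 8.25 and 11.9 to 4845 and 3588 without ActA, TBX20 from 7.07 and 5.94 to 3067 and 3151, and PDGFRA from 61.3 and 56.5 to 8217 and 6436. SP5 fell from 1763 and 1444 to 32.3 and 47.96. These genes therefore moved the same way in both arms, and no difference between the arms passed the test for any of them (adjusted p = 0.34, 0.30, 0.47 and 0.16 in the order given).

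Genes whose step differed between the arms numbered 454 (2.87%) at an adjusted p under 0.05, with 137 more positive with ActA (0.867%) and 317 more negative (2.01%). In 431 of the 454 the effect of ActA was larger in pre-ME than in somatic cells, against 73.2% of all tested genes, with a median absolute log2 difference of 1.38 in pre-ME and 0.187 in somatic cells, against 0.366 and 0.139 over all tested genes. The 454 were chosen by the difference between these same values, so the medians are a description. Of the 10 named genes with the largest difference, every one was more negative with ActA. ADRA1B, an adrenergic receptor, went from 1333 and 1029 to 200.1 and 231 with ActA and from 20.04 and 14.9 to 108 and 161 without it (log2 difference -5.36 ± 0.38, adjusted p = 2.3e-06). NKX2-3 went from 1133 and 1288 to 133 and 119 with ActA and from 29.5 and 30.7 to 48.4 and 80.5 without it (log2 difference -4.38 ± 0.51, adjusted p = 1.8e-04). In both genes pre-ME with ActA lay far above pre-ME without it. HOXA9 went from 243 and 178 to 113 and 56.6 and from 2.95 and 0.99 to 27.7 and 35.6 (log2 difference -5.12 ± 0.60, adjusted p = 1.9e-04). CYP26B1, WNT2, SP6, SPSB1, ADAMTSL2 and CDX1 were also among the 10, with log2 differences of -4.10, -4.42, -4.73, -4.96, -4.57 and -3.97. WNT2, a ligand of lateral mesoderm, reached 314 and 269 without ActA and 70.8 and 31.3 with it.

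The count of differing genes depended on single libraries. It was 104 without the first pre-ME replicate with ActA, 157 without the second pre-ME replicate without ActA, 219 and 109 without the first and the second somatic replicate with ActA, and 180 and 185 without those without ActA. It was 303 without the second pre-ME replicate with ActA, 366 without the first pre-ME replicate without ActA and 887 by DESeq2. Of the 10 named genes, CDX1 was not called without the second pre-ME (no ActA) replicate (adjusted p = 0.096), the first pre-ME replicate (adjusted p = 0.091), the first somatic (no ActA) replicate (adjusted p = 0.16), the second somatic (no ActA) replicate (adjusted p = 0.16), the first somatic replicate (adjusted p = 0.12) or the second somatic replicate (adjusted p = 0.19), nor CYP26B1 without the second pre-ME (no ActA) replicate (adjusted p = 0.054), the first pre-ME replicate (adjusted p = 0.053), the second somatic (no ActA) replicate (adjusted p = 0.6) or the second somatic replicate (adjusted p = 0.069). ADRA1B, NKX2-3, HOXA9, WNT2, SP6, SPSB1 and ADAMTSL2 kept their call without any 1 library.

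**Figure D4:**
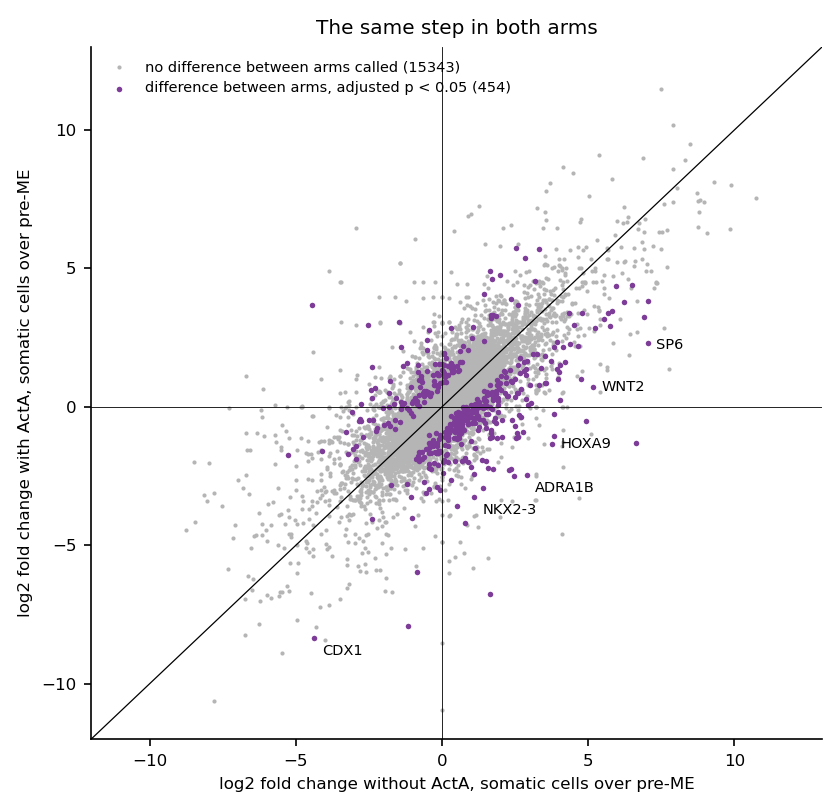
Log2 fold change of somatic cells over pre-ME without ActA on the x axis and with ActA on the y axis for each of the 15797 tested genes, with the line of equal values. Most genes lie along the line, and the 454 genes in purple, whose step differed between the arms at an adjusted p under 0.05, lie mostly below it.

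Genes that differed between the arms are given for the 9 lists with 4 or more of them, beside 2.87% of all tested genes. They were 4 of 10 nodal and activin targets, 5 of 19 NOTCH pathway genes, 7 of 27 cardiac and smooth muscle genes, 8 of 31 BMP response genes, 5 of 24 FGF and ERK feedback genes and 4 of 24 WNT feedback targets, all more negative with ActA. Of 15 retinoic acid genes 3 were more positive and 2 more negative, of 51 matrix genes 1 and 10, and of 36 mesenchyme genes 1 and 6. SMAD7, an inhibitory SMAD that Activin and BMP induce, went from 847 and 638 to 2146 and 2124 with ActA and from 119.7 and 134 to 2214 and 2047 without it (log2 difference -2.53 ± 0.29, adjusted p = 1.8e-04). FN1 went from 39203 and 29949 to 110395 and 71370.4 and from 7707 and 5201 to 101191 and 98126 (log2 difference -2.53 ± 0.33, adjusted p = 4.5e-04). KDR, a VEGF receptor, went from 2688 and 2788 to 2089 and 2027 and from 558 and 397 to 1630.4 and 1819 (log2 difference -2.24 ± 0.27, adjusted p = 2.3e-04). The somatic levels of SMAD7, FN1 and KDR were close between the arms, and their pre-ME levels lay far apart. The FGF targets ETV4, ETV5, SPRY4 and DUSP6 had log2 differences of -3.78, -2.89, -2.62 and -1.76. RXRG, a retinoid receptor, was among the genes more positive with ActA (log2 difference 3.01 ± 0.49, adjusted p = 0.0034).

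The cjPGCLCs of the same EBs separated from the somatic cells by few genes. Of the 15797 tested, 26 were higher in somatic cells (0.165%) and 223 were lower (1.41%), 1.58% in all. At the adjusted p alone 183 were higher (1.16%) and 581 lower (3.68%). The somatic libraries are shared with the comparison above, so the values are set side by side. HAND1 stood at 3934 and 3497 in somatic cells and 2135 and 2858 in cjPGCLCs (log2 fold change 0.57 ± 0.22, adjusted p = 0.2), TBX20 at 3646 and 3090.4 and 3760.2 and 2424 (log2 fold change 0.11 ± 0.27, adjusted p = 0.92), and PDGFRA at 4303 and 3481 and 5562 and 3659.8 (log2 fold change -0.26 ± 0.25, adjusted p = 0.75). For these mesodermal genes the cjPGCLC libraries, like the somatic ones, lay far above pre-ME. None of the 32 tested genes of lateral plate mesoderm differed past the thresholds between somatic cells and cjPGCLCs, and their median difference was 0.12 on the log2 scale. In the list of primate germ cell genes, 8 of 22 were lower in somatic cells and none was higher. The list holds ITGA6, CXCR4 and EPCAM, candidates for the sort markers, so part of this count was set by the sort. SOX17 stood at 143 and 219 in somatic cells and 913 and 1034 in cjPGCLCs (log2 fold change -2.42 ± 0.47, adjusted p = 0.0057), TFAP2C at 28.3 and 25.3 and 113 and 114 (log2 fold change -2.09 ± 0.51, adjusted p = 0.023), and NANOS3 at 3.54 and 1.49 and 42.3 and 14.2 (13.1-fold lower by pooled counts, 95% counting interval 4.27 to 65.3, adjusted p = 0.021). NANOG did not differ past the thresholds, at 158 and 203 and 136 and 297 (log2 fold change -0.24 ± 0.30, adjusted p = 0.82), and SOX2 was 2799 and 3245 against 1094 and 1838 (log2 fold change 1.04 ± 0.25, adjusted p = 0.023). The count of 249 fell to 152 and 109 without the first and the second somatic replicate and to 124 without the first cjPGCLC replicate, and was 292 without the second. SOX17 was not called without the first somatic replicate (adjusted p = 0.095), and TFAP2C and NANOS3 each not without several single libraries, with adjusted p up to 0.23 and 0.42.

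Of the endoderm genes 5 of 15 tested were lower in somatic cells than in cjPGCLCs, against 1.41% of all tested genes. Of the epithelial junction genes 8 of 29 were lower, and none was higher in either list. The endoderm list holds SOX17, given above with the germ cell genes. The epithelial list holds EPCAM, a candidate sort marker. FOXA2, the endoderm factor, had no read in somatic cells and 192 and 83.9 normalised counts in cjPGCLCs (at least 28.2-fold lower, adjusted p = 6.5e-05). HNF4A, a nuclear receptor of visceral endoderm and liver, stood at 8.85 and 5.96 and 418 and 131 (log2 fold change -5.24 ± 0.73, adjusted p = 3.8e-04). IHH, a hedgehog ligand of visceral endoderm, stood at 10.6 and 0 and 264 and 112 (log2 fold change -5.26 ± 0.74, adjusted p = 3.8e-04). All 3 were higher in the first cjPGCLC library than in the second. SCIN, an actin-severing protein, stood at 95.6 and 49.2 and 4217 and 3321 (log2 fold change -5.73 ± 0.63, adjusted p = 5.5e-05). RBM47, an RNA-binding protein of epithelia, ST6GAL2, GSTO1, TFAP2B and the transcript MIR9-1HG were also among the 10 with the largest deficit in somatic cells. Their somatic levels were at most 8.94 normalised counts, and their cjPGCLC levels were at least 66.8. GSTO1 was not called without the first somatic replicate (adjusted p = 0.082) or the second somatic replicate (adjusted p = 0.085).

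The 10 named genes with the largest excess in somatic cells were smaller in size of difference. PCSK2, a prohormone convertase, was measured at 156 and 306 in somatic cells and 7.61 and 35.5 in cjPGCLCs (log2 fold change 3.54 ± 0.55, adjusted p = 9.5e-04), against 5.01 and 5.62 in pre-ME. RGS5, a pericyte signalling regulator, was measured at 2528 and 4004 and 176 and 860.2 (log2 fold change 2.68 ± 0.47, adjusted p = 0.0024). F3, tissue factor, was measured at 1068 and 1355 and 129 and 264 (log2 fold change 2.64 ± 0.29, adjusted p = 5.5e-05). GREM1, MDGA1, EN1, TMEM158, TSPAN8 and HOXA3 had log2 fold changes of 2.29, 2.29, 2.24, 2.14, 2.14 and 2.09. Of the 10, PCSK2, RGS5, F3, GREM1, MDGA1, EN1 and TMEM158 also rose from pre-ME to somatic cells. PCSK2 and F3 kept their call against cjPGCLCs without any 1 library. RGS5 was not called without the first cjPGCLC replicate (log2 fold change 1.92), nor MDGA1 without the first cjPGCLC replicate (adjusted p = 0.055). GREM1 was not called without the first cjPGCLC replicate (adjusted p = 0.14) or the second somatic replicate (adjusted p = 0.094), nor EN1 without the first cjPGCLC replicate (adjusted p = 0.14) or the second somatic replicate (adjusted p = 0.13), nor TMEM158 without the first cjPGCLC replicate (log2 fold change 1.57) or the second somatic replicate (log2 fold change 1.99). TSPAN8 was not called without the first cjPGCLC replicate (adjusted p = 0.27) or the second somatic replicate (adjusted p = 0.28), nor HOXA3 without the first cjPGCLC replicate (adjusted p = 0.11), the second cjPGCLC replicate (adjusted p = 0.09), the first somatic replicate (adjusted p = 0.12) or the second somatic replicate (adjusted p = 0.051).

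**Figure D5:**
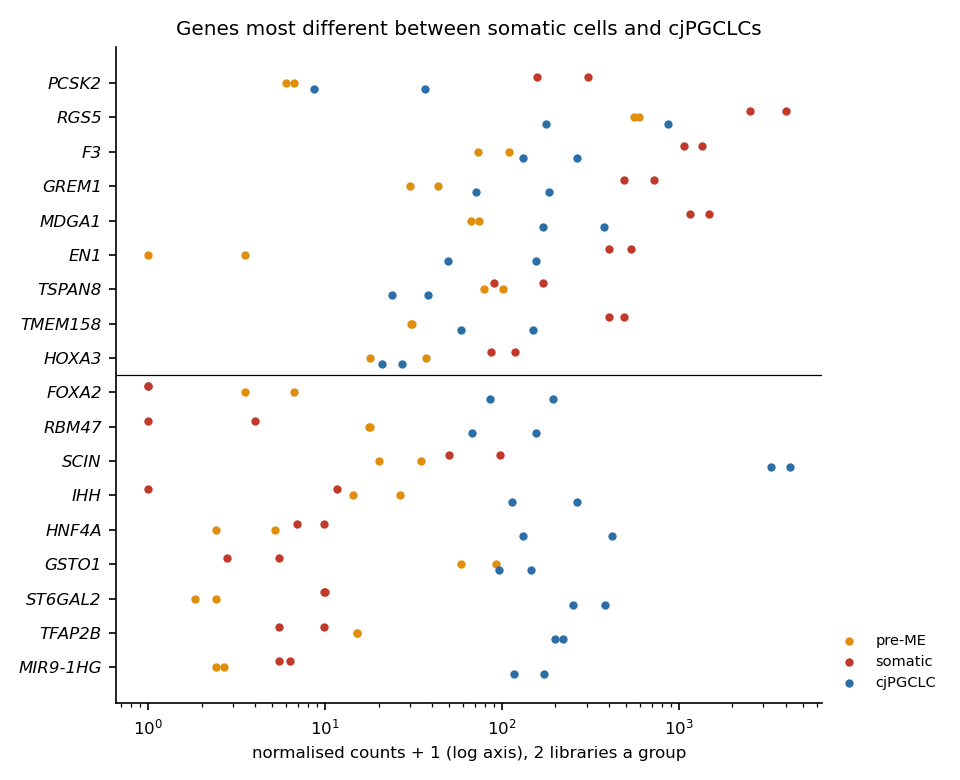
Normalised counts plus 1 on a log axis for 9 of the 10 genes with the largest excess in somatic cells over cjPGCLCs (top) and 9 of the 10 with the largest deficit (bottom), with 2 points for each of pre-ME, somatic cells and cjPGCLCs. In the lower block the cjPGCLC points lie to the right of all others except for GSTO1, where pre-ME comes close.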

How the data were processed

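RNA from 20 libraries, 2 for each of 10 conditions, was sequenced by the authors as paired-end reads. Of these, 4 libraries form the main comparison. Per the submitters' processing notes, reads were checked with FastQC 0.11.8, mapped with STAR 2.7.0a to the calJac4 build and counted per gene with HTSeq 0.11. The annotation release and strand setting are not given in the sources used here. The deposited raw counts were used for every test. The deposited normalised signal, which the authors obtained by dividing counts by DESeq2 size factors, equals the raw counts over the size factors computed here and gives the printed levels. A pair of summary lines was left out of library sizes, and reads in no gene were 20.1% to 22.8% of a library's total in the 4 libraries.

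edgeR 4.0.16 in R 4.3.3 was fitted to all 20 libraries with 1 coefficient per condition (10 residual degrees of freedom), TMM scaling, the default expression filter (15797 of 25102 genes kept) and the quasi-likelihood test. Adjusted p is Benjamini-Hochberg over all tested genes, in each of 4 comparisons. Calls needed an adjusted p below 0.05 together with an absolute log2 fold above 2, and only the former for the difference between the arms. Values after ± are standard errors of the fit. Intervals at 95% and the floor of 3 counts cover counting error only. On data simulated for this comparison 188 of 194 genes changed by a log2 fold of 3 were recovered. The simulation gave all genes the same dispersion and the conditions no other difference, so it does not give the recovery for the measured genes. The members and gene lists were chosen with earlier results of these data known. Named genes were the list members and, by fold change, 15 in each direction of the main comparison, 10 for the arms and 10 in each direction against cjPGCLCs, with symbols, libraries that do not overlap and a mean of at least 100 normalised counts in the higher group. Some genes that meet this rule are not reported here. Alternatives were other scaling, filters, thresholds, tools, a replicate block and leaving out each library. Neighbouring and overlapping genes were looked up in the RefSeq gene table by name, which held 21267 of the 25102 names.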

Additional observations from a re-analysis of the deposited data

Results flagged for a closer look

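The genes below are those named in the report whose step from pre-ME to somatic cells differed between the arms by the test of the difference itself (adjusted p under 0.05), each with its log2 difference, arm with ActA minus arm without. Both genes with a more positive step with ActA were PCDH8, a protocadherin, with 2.54 and RXRG with 3.01. All others were more negative with ActA.

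Transcription factors of position and lineage differed by -3.97 for CDX1, -4.38 for NKX2-3, -4.73 for SP6, -5.12 for HOXA9, -2.74 for HOXA13, -1.58 for HEY1, -2.34 for HEY2 and -2.004 for LEF1. Feedback genes and effectors of FGF signals differed by -3.78 for ETV4, -2.89 for ETV5, -2.62 for SPRY4 and -1.76 for DUSP6. Genes of BMP and TGF-beta feedback differed by -2.53 for SMAD7, -1.39 for SMAD6, -2.73 for PMEPA1 and -1.97 for NOG. Ligands, receptors and enzymes differed by -4.42 for WNT2, -2.11 for PGF, -2.24 for KDR, -5.36 for ADRA1B and -4.10 for CYP26B1. Matrix and cytoskeletal genes differed by -2.53 for FN1, -1.31 for COL4A1, -1.46 for COL4A2, -4.57 for ADAMTSL2, -1.32 for ACTA2 and -1.60 for TAGLN. SPSB1 differed by -4.96 and GADD45B by -2.66. Of these 31 genes, 14 were not called in at least 1 fit that left out a single library: ACTA2, CDX1, COL4A1, COL4A2, CYP26B1, GADD45B, HEY2, LEF1, NOG, PCDH8, PGF, PMEPA1, SMAD6 and TAGLN. The largest adjusted p among these fits was 0.6, for CYP26B1 without the second somatic replicate without ActA.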

How the results depend on the processing

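For pre-ME with ActA against somatic cells, 1311 genes were called. The count was 344 when fold changes beyond 2 were tested directly (glmTreat) and 3753 with the fold threshold at a log2 of 1, and it ran from 1217 to 1273 when single libraries were left out. For the arm without ActA these were 1255, 364, 3198 and 1152 to 1280. For the difference between the arms, 454 genes became 887 with DESeq2, 2393 with the libraries of the comparison only, 1290 with no filter on low counts and 104 to 366 without single libraries. For somatic cells against cjPGCLCs, 249 became 17 with glmTreat (none higher), 544 with the threshold at 1 and 109 to 292 without single libraries. The correlation of 0.74 between the arms was 0.595 with the genes called in either arm left out. The other alternatives moved these counts by less than 1.5 times. Of 129 named genes called in the main comparison, 17 were not called in at least 1 fit without a single library.

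Genes that were not called in the main comparison changed sign without single libraries: CDH1 (log2 -1.19 to 1.45), EGR1 (-0.079 to 0.37), ETV5 (-0.020 to 0.315), FOS (-0.80 to 0.0042), SOX17 (-0.52 to 0.086) and TSPAN8 (-0.0078 to 0.91). Medians near 0 took the opposite sign under some alternative for 4 lists (nodal and activin targets, endoderm, epithelial junctions and NOTCH pathway). The cause was not tested.

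The replicate numbers gave no evidence of pairing, with correlations of same-numbered deviations of 0.042 with ActA, -0.139 without it and 0.131 against cjPGCLCs. With the replicate block the counts were 1314, 1262, 452 and 249, and ID2 was no longer called. With the numbers crossed in the arm without ActA, chosen after seeing the data, the count was 1255.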

Other observations

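Genes best known from neurons and sensory ectoderm among the 15 with the largest rise were also measured in cjPGCLCs and in the arm without ActA. INSRR stood at 90.4 and 135 in cjPGCLCs and 348 and 371 in somatic cells without ActA, against 313 and 325 in the somatic cells of the main comparison. CHRNA3 stood at 161 and 141 and 71.5 and 75.8 in the same order, and UNC5C at 5588 and 5748 and 5532 and 5888. EN1 stood at 48.2 and 155 in cjPGCLCs and FEZF2 at 16.9 and 46.9, against 398 and 535 and 120.4 and 119 in somatic cells. None of these 5 is in the list of neural genes, of which 2 of 19 rose. Of the called genes, 176 of the 835 that rose and 71 of the 476 that fell have only a locus name and are not described.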
